A study of Mus musculus with 4 samples.

Results

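The early erythroid progenitors of mouse trabecular bone were the nucleated red cell precursors that already carried erythroid genes but had accumulated little hemoglobin RNA. They were 96 cell barcodes of the 2 trabecular libraries, 54 from control mice and 42 from glucocorticoid (GC) treated mice, out of 8765 barcodes of these libraries that passed the quality filter and 23216 of all 4 libraries in the series. Each had at least 500 UMIs (unique molecular identifiers, which count captured RNA molecules), at least 200 genes and at most 10% mitochondrial UMIs. It had at least 3 UMIs of Klf1, Gata1 and Car1 together, under 10% of its UMIs from the hemoglobin genes Hba-a1, Hba-a2, Hbb-bs and Hbb-bt, under 3% from S100a8 and S100a9, and under 0.5% from Elane, Mpo and Prtn3. The cells were thus selected on the UMI counts of these genes, whose levels in them are given as a description.

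The study compared bone of mice given the synthetic GC prednisolone with that of placebo mice. All mice were C57BL/6J males of 20 weeks with no other allele or agent named, and the trabecular samples were taken 2 weeks after a subcutaneous pellet had been placed. The GC pellet released 6.25 mg/kg/d of prednisolone, and the control pellet held none. Trabecular bone was digested with collagenase, dispase and DNase, filtered and loaded on the 10x Genomics droplet system without any sort for blood cells, and the sources used here do not state how many mice went into a library. Each condition had 1 library, so a GC effect, a mouse and a library cannot be told apart. No test was run, and the 95% intervals given throughout cover counting error only.

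Red cells form in the marrow from stem and multipotent progenitor cells that express Kit and Cd34. Committed progenitors switch on the transcription factors Gata1 and Klf1, respond to erythropoietin through its receptor, divide several times, take up iron through the transferrin receptor and make heme and globin while they lose their ribosome-building program. GC acts through the nuclear receptor Nr3c1 and is known in culture to favor self-renewal of early erythroid progenitors over their maturation. Gata1 binds GATA letters in DNA and Klf1 binds CACC letters, and both are known at promoters of erythroid genes.

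The promoters of 3 genes of this program are printed because they hold such letters, and that of Tsc22d3 is set beside them because Tsc22d3, a classical GC-induced gene, had the highest GC over control ratio of the GC receptor targets described below. Each sequence runs from 250 bases before to 50 bases after a transcript start, in the sense of the gene, and is taken from RefSeq on build GRCm38.p6, which is the mm10 build of the files. In Alas2, Epor and Gata1, capitals mark the letters AGATAA of GATA factors and the letters CCNCNCCC of a CACC box, each searched on both strands, and matches of the latter overlap each other in places. In Tsc22d3, capitals mark AGAACA, likewise searched on both strands, the core letters of a glucocorticoid response element.
Alas2, chrX:150547167-150547466, + strand: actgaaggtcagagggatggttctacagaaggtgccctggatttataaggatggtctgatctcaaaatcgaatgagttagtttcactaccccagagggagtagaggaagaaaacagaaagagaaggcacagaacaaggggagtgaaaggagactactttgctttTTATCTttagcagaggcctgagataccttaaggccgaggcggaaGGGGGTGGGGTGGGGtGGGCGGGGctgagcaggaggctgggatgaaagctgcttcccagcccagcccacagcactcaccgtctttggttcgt
Epor, chr9:21963527-21963826, - strand: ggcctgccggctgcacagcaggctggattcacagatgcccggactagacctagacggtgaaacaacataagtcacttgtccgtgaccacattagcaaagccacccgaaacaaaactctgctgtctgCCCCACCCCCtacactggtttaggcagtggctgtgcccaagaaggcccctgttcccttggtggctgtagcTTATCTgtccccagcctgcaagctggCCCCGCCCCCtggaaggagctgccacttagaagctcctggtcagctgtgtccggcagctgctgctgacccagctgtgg
Gata1, chrX:7967861-7968160, - strand: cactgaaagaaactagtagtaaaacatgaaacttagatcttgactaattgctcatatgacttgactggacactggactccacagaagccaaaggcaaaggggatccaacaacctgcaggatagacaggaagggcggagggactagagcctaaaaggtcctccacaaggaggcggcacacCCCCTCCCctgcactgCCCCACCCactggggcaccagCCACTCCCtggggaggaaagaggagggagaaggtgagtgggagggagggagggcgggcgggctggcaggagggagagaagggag
Tsc22d3, chrX:140600473-140600772, - strand: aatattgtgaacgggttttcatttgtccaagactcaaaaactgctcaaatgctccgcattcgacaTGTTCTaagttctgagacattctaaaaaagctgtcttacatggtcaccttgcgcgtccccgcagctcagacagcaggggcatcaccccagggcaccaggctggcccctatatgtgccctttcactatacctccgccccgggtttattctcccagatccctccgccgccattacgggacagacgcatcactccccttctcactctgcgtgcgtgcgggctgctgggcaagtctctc

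Alas2 makes the first, rate-limiting step of erythroid heme synthesis, and its promoter held 1 match of the GATA letters and 4 of the CACC letters. Epor, the erythropoietin receptor, held 1 and 4, and Gata1 held 0 and 3. The promoter of Klf1, searched in the same way, held 0 of both. Across the series' gene lists, AGATAA stood in 5 of 23 promoters of erythroid transcription factors (21.7%), in 2 of 16 of heme synthesis genes (12.5%) and in 5 of 19 of red cell membrane genes (26.3%), beside 11.2% of all 32851 promoters searched. CCNCNCCC stood in 69.6%, 87.5% and 63.2% of the same promoters, beside 49.5% of all. In the early erythroid enzymes and markers, AGATAA stood in 4 of 14 promoters (28.6%) and CCNCNCCC in 10 (71.4%), and in the globins in 2 of 9 (22.2%) and 3 (33.3%), the latter below the share of all promoters. The GC response letters stood in 5 of 31 promoters of GC receptor targets (16.1%) and in 19% of all, and in Tsc22d3 in 1 of its 3 listed promoters. Promoters on chr18 were not searched, in the lists or among all. Of the 16 erythroid transcription factor, 17 heme synthesis, 24 membrane and 22 GC receptor target genes, 14, 13, 16 and 19 had a RefSeq promoter among those searched. Of the 13 early enzyme and marker genes and the 11 globin genes, 7 and 9 had one. A match is a description of letters, not of binding.

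The gate held cells over a wide range of depth. Control cells had from 643 to 83453 UMIs with a median of 23349.5, and GC cells had from 574 to 90140 with a median of 20491. A median of 4104.5 genes per cell was detected in control and 3796 in GC. The shallowest and the deepest cell were both in the GC library, and the 2 ranges overlapped almost whole. Under 2500 UMIs lay 11 cells of each library. The hemoglobin share had a median of 0.386% in control and 0.695% in GC, and was under 1% in 37 control and 25 GC cells, from 1 to 3% in 5 and 5, and from 3 to 10% in 12 and 12.

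**Figure D1:**
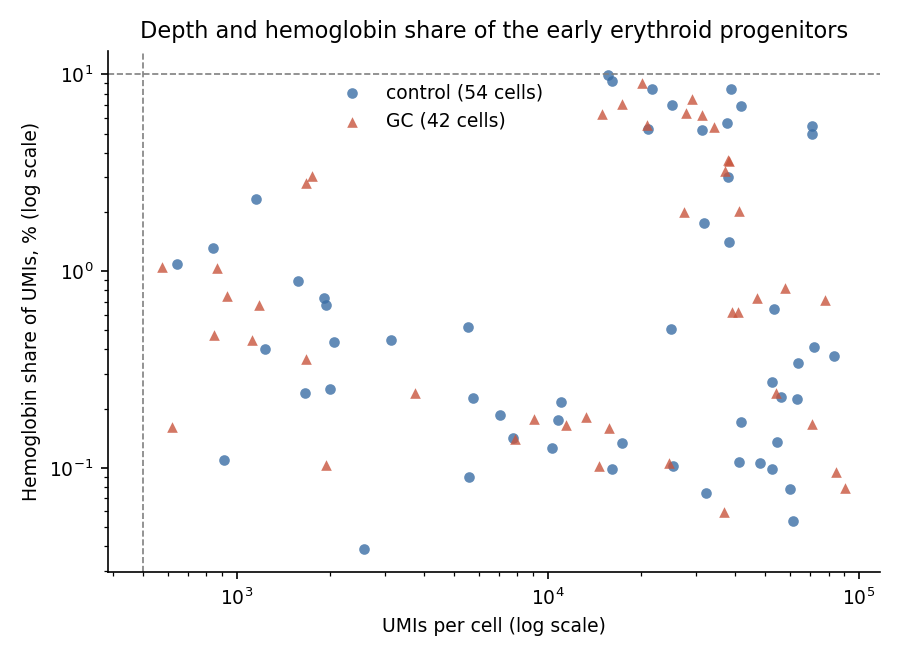
Each point is 1 cell, with its UMIs on the x axis and its hemoglobin share of UMIs in percent on the y axis, both on log scales; circles are control and triangles are GC, and dashed lines mark the gate at 500 UMIs and 10%. Cells of both libraries spread over the same ranges, with most under 1% hemoglobin and 24 between 3 and 10%.

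Near the limits of the gate, 5 control and 4 GC cells had exactly 3 UMIs of Klf1, Gata1 and Car1, and 7 and 9 barcodes with 2 UMIs lay just outside. The highest hemoglobin share inside was 9.96% in control and 9.05% in GC, and the lowest outside was 10.1% and 11%. Of 114 control and 73 GC barcodes with 3 such UMIs, the hemoglobin limit left out 58 and 28, the S100a8 and S100a9 limit 6 and 3, and the limit on Elane, Mpo and Prtn3 left out 1 and 0. Of these upper limits, hemoglobin thus left out the most barcodes.

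The label was checked with Car2 and Tfrc, which the gate did not use. Car2, a carbonic anhydrase abundant in red cells, had a UMI in 54 of 54 control and 42 of 42 GC cells. Tfrc, the transferrin receptor through which iron enters, had one in 39 of 54 (72.2%) and 25 of 42 (59.5%). With each cell thinned to 1000 UMIs, which leaves out 3 control and 5 GC cells, these shares were 84.3% and 91.9% for Car2 and 19.6% and 24.3% for Tfrc. In the cells rich in S100a8 and S100a9, which are neutrophil genes, the thinned shares were 1.03% and 1.12% for Car2 and 0.831% and 1.16% for Tfrc, and the unthinned ones were 6.20% and 6.31% and then 8.18% and 6.60%, at median depths of 6264 and 5770 UMIs. Both markers were thus found in a larger share of the progenitors than of those cells, in which free RNA and the cells' own RNA were not told apart.

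Of the genes that did choose the cells, Car1 had a UMI in 52 control and 42 GC cells, Klf1 in 41 and 28, and Gata1 in 37 and 24. A Klf1 or Gata1 UMI was present in 45 of 54 and 30 of 42 cells. The others, 9 in control and 12 in GC, passed through Car1 alone, and 7 of them in each library had under 2500 UMIs. Car1 was thus the gene that admitted most shallow cells.

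A few cells did not follow the label. With the cells of a library numbered from the deepest, control cells 7 and 22 had 951 and 367 UMIs of the platelet factor Pf4, no Klf1 and no Car1, and entered through 5 and 3 UMIs of Gata1, which megakaryocytes also express. They held 1318 of the 1319 Pf4 UMIs of the control cells. Control cells 11 and 27 had 1.49% and 2.16% of their UMIs from S100a8 and S100a9, where no other control cell reached 1%, and the highest share among GC cells was 0.577%. At least 10 UMIs of Vim, an intermediate filament gene that is low in red cell precursors, were found in 1 control and 5 GC cells. The 5 GC cells had from 2 to 21 UMIs of Car1, and 4 of them had at least 1 UMI of the mast cell gene Cpa3. For several single genes that rest on these cells, values are given with and without them. The summed lists of markers of other cell types are given with all cells.

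No member barcode occurred in another library. The 2 trabecular libraries shared 7 barcodes that passed the quality filter, where 2.80 were expected from the size of the barcode list. A doublet score marked 127 control and 183 GC barcodes of these libraries and none of the 96 cells. Barcodes of 10 to 100 UMIs, taken as free RNA, had 16.7% hemoglobin in control and 10.9% in GC, and the share of the progenitors' own UMIs that such RNA could account for was estimated at 4.77% and 4.65%. The estimate took all UMIs of the neutrophil genes Ngp, Camp, Ltf and Lcn2 in the cells as free RNA, so it is high where they came otherwise.

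The whole lists of markers of other cell types were summed as CPM, the UMIs of a list as counts per 1000000 UMIs of the cells. Megakaryocyte genes, led by Pf4, had 1041 CPM in control and 37.6 in GC. Control cells 7 and 22 had 1.78% and 1.37% of their UMIs from this list, and the highest share in a GC cell was 0.057%. Neutrophil genes had 3559 and 2164, where the free RNA had 113687 and 58258. Control cells 11 and 27 had 2.25% and 3.16% from the neutrophil list, beside medians per cell of 0.245% in control and 0.236% in GC. Neither sum was recomputed without these cells. Granulocyte progenitor genes had 73.0 and 89.8, monocyte and macrophage genes 27.9 and 17.4, mast cell and basophil genes 12.6 and 31.2, and T and NK cell genes 23.9 and 23.8. B cell, dendritic cell, eosinophil, endothelial and stromal genes each summed to at most 12.8 CPM in either library. Elane led the granulocyte progenitor list with 47 and 49 UMIs, and Nkg7 led the T and NK cell list with 34 and 20. The part of these genes in the results that follow was not tested beyond the values given without single cells.

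The first comparison asked how large the early erythroid compartment was after GC. The 54 control cells were 1.36% of 3977 barcodes (exact Clopper-Pearson interval 1.02 to 1.77%), and the 42 GC cells were 0.877% of 4788 (0.633 to 1.18%). The GC share was 0.646 of the control share, with an interval of 0.421 to 0.985. The hemoglobin-rich cells of the same gate, with at least 10% hemoglobin, numbered 53 and 28, a ratio of 0.439 (0.267 to 0.706). Both steps of the series thus had a lower share in the GC library, while all barcodes with at least 10% hemoglobin, most of them without 3 UMIs of the gate genes, went the other way, with 302 (7.59%) in control and 607 (12.7%) in GC. The share is relative to all other cells in the digest, which were mainly neutrophils, and over the barcodes not rich in S100a8 and S100a9 it was 3.87% in control and 2.02% in GC.

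As a description of the progenitors against all other barcodes that passed, the 15 genes with the highest ratio in both libraries were Car1, C1qtnf12, Mt2, Smim1, Gstm5, Klf1, Stard10, Hebp1, Minpp1, Bex4, Car2, Sept8, Cpox, Gata1 and Mns1. Car1 had 1951 CPM in the control cells against 21.6 in the rest, and 1643 against 9.31 in GC. Car2 had 3108 against 220.4 and 3230 against 200.9. Smim1 encodes the Vel blood group antigen, Cpox is an enzyme of heme synthesis and Hebp1 binds heme, so that several of these genes belong to the red cell program beyond those in the gate. Mt2 encodes a metal-binding metallothionein, and it had 304.1 CPM against 7.64 in control and 663.4 against 19.0 in GC. The 10 genes with most UMIs were the ribosomal protein genes Rpl41, Rps2, Rplp1, Rplp0, Rpl13 and Rps12, the beta globin gene Hbb-bs, the mitochondrial gene mt-Atp6, the ferritin gene Fth1 and the translation factor gene Eef1a1.

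The place of these cells in the series was described against 83 barcodes with at least 3 UMIs of Kit and Cd34 and fewer than 3 of Klf1, Gata1 and Car1 (39 control, 44 GC), and against the 81 hemoglobin-rich cells. The Kit and Cd34 progenitors of the control library also held RNA of other cells. Mast cell and basophil genes had 2170 CPM in control and 152.9 in GC. Stromal genes had 902.9 and 32.3, and monocyte and macrophage genes 485.8 and 123.8. The dissociation stress genes of these progenitors also differed, with 8362 and 5813. Kit, the stem cell factor receptor, stood at 131.8 and 128.1 CPM in the Kit and Cd34 progenitors (control and GC), at 29.2 and 60.5 in the early erythroid progenitors and at 0 in the hemoglobin-rich cells. Cd34 fell off sooner, with 376.9 and 274.6 CPM, then 1.33 and 1.83, then 0. Myb, which keeps progenitors dividing, had 233.6 and 216.5, then 85.7 and 85.2, then 3.06 and 0. Kit and Cd34 chose the comparison cells, so their higher levels there are fixed by that choice, whereas Myb was used by neither rule.

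Several erythroid genes ran the other way. Epor had 0 and 2.15 CPM in the Kit and Cd34 progenitors, 79.7 and 103.5 in the early erythroid progenitors and 119.4 and 206.1 in the hemoglobin-rich cells. Tfrc had 34.4 and 33.4, then 307.5 and 319.8, then 1141 and 1200. Alas2 had 2.87 and 2.15, then 85.0 and 82.5, then 1089 and 916.8, and Slc4a1, the band 3 anion exchanger of the red cell membrane, had 2.87 and 2.15, then 258.3 and 310.6, then 2338 and 2006. In linear terms most of the Alas2 and Slc4a1 level was gained after this stage. Rhd, a blood group antigen, lay between with 1.43 and 0, then 435.0 and 406.8, then 1245 and 1366.

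**Figure D2:**
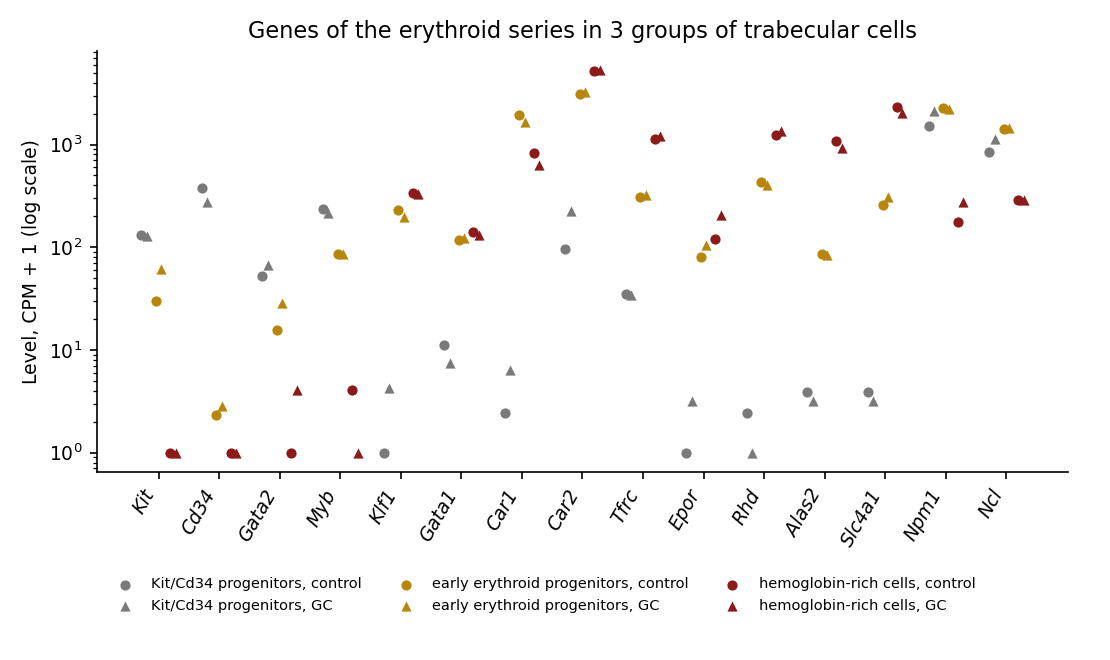
The y axis gives the level of 15 genes as CPM + 1 on a log scale in Kit and Cd34 progenitors (grey), early erythroid progenitors (ochre) and hemoglobin-rich cells (red), with a circle for control and a triangle for GC. Kit, Cd34, Gata2 and Myb are lower in each later group, Alas2 and Slc4a1 are higher in each, and Npm1 and Ncl are lowest in the hemoglobin-rich cells.

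By list, and with 2-fold on log2(CPM + 5) in both libraries as the limit, 8.36% of 4796 genes were higher and 11.5% were lower in the early erythroid than in the Kit and Cd34 progenitors. Of 15 heme synthesis genes 12 were higher and 0 lower, and of 22 membrane and skeleton genes 17 were higher and 1 lower. Of 13 early progenitor genes, in a list with Kit and Cd34 that chose the comparison cells, 11 were lower and 0 higher. S phase genes were higher in 21 of 38, and 4 of 4 globin genes were higher.

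Against the hemoglobin-rich cells, 21.4% of 3458 genes were higher and 5.52% were lower in the early erythroid progenitors. The globins, 5 of 5 lower, carry the rule itself, and they also take 280514 and 244610 CPM of the hemoglobin-rich cells, which lowers the share left for other genes. Membrane and skeleton genes were lower in 12 of 22, heme synthesis genes in 8 of 14 and late maturation genes in 8 of 10. Of 14 erythroid transcription factors, in a list with Klf1 and Gata1 of the gate, 2 were higher and 3 lower. Of 12 early erythroid enzymes and markers 3 were higher and 3 lower. Ribosome biogenesis genes were higher in 13 of 13, with a median log2 ratio of 3.14 in control and 2.51 in GC beside 0.54 and 0.44 over all genes. Chaperones of the GC receptor were higher in 6 of 7, among them Hsp90ab1 with 2345 and 2259 CPM in the early erythroid progenitors and 249.6 and 692.2 in the hemoglobin-rich cells.

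Within the early erythroid progenitors, the cells were ordered by their hemoglobin share, free RNA included. The cells of at least 5000 UMIs were set in 3 ranges, a division chosen after the values had been seen, with 27 control and 17 GC cells under 1%, 2 and 2 from 1 to 3%, and 12 and 11 from 3 to 10%. The middle range holds too few cells to be read, and the values that follow compare the outer ranges. The control range under 1% also held megakaryocyte genes at 1573 CPM, beside 43.1 in GC under 1% and 39.6 in control at 3 to 10%. The values were not recomputed without the cells rich in those genes. Heme synthesis had 3023 CPM in control and 2645 in GC under 1% and 6938 and 7693 at 3 to 10%. Membrane and skeleton had 4156 and 4026 and then 9306 and 10281. G2/M genes, which serve mitosis, had 9480 and 8926 and then 15163 and 15946, and S phase genes, which serve DNA replication, had 5262 and 4326 and then 8919 and 8676. Cells with more hemoglobin thus also had more of the division genes, in both libraries.

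Ribosome biogenesis ran in the opposite direction, with 6825 and 7237 CPM under 1% and 3086 and 2417 at 3 to 10%. The early progenitor genes had 483.2 and 588.7 and then 254.0 and 200.3. Among single genes, Kit had 37.6 CPM in control and 94.8 in GC under 1% and 16.3 and 0 at 3 to 10%. Cdk6, a kinase of the G1 phase, had 302.5 and 351.8 and then 83.9 and 19.4, while Ccnd3, a D-type cyclin of later erythroid divisions, had 187.8 and 142.2 and then 675.9 and 646.2. Alas2 had 12.2 and 8.62 and then 254.0 and 245.6, and Slc4a1 had 8.12 and 14.4 and then 869.3 and 937.0. Klf1, which chose the cells, had 205.0 and 139.3 and then 296.0 and 294.0, given as a description only.

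**Figure D3:**
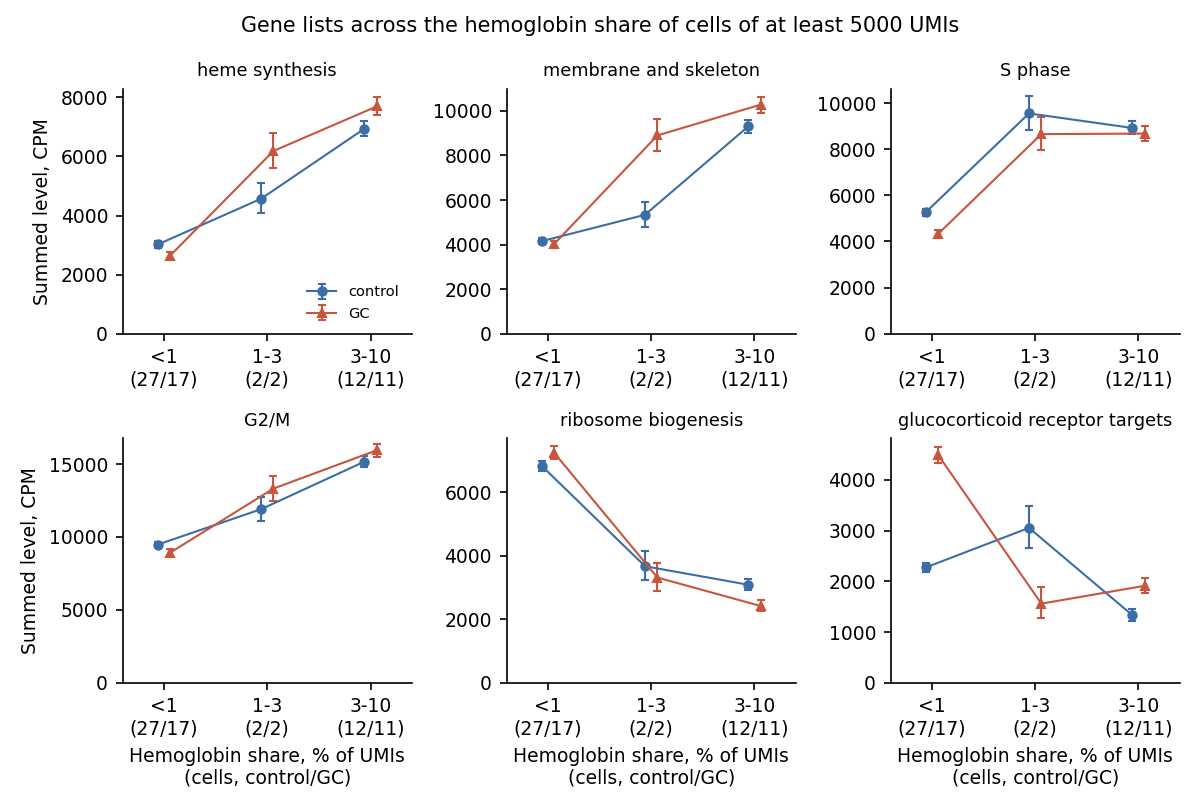
Each panel gives the summed level of a gene list as CPM (y axis, from 0) in cells of at least 5000 UMIs whose hemoglobin share was under 1%, 1 to 3% or 3 to 10% (x axis, with the number of control and GC cells in parentheses); circles are control, triangles are GC, and bars are exact Poisson 95% intervals for counting error only. Heme synthesis, membrane and division genes are higher at 3 to 10% than under 1% in both libraries, ribosome biogenesis is lower, and the middle range rests on 2 cells a library.

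The globin UMIs of these cells were nearly all of the adult genes, and free RNA could account for some of them. At the estimated share of free RNA, 0.796% of a control cell's UMIs and 0.508% of a GC cell's would be free globin RNA, and 36 of 54 and 18 of 42 cells had a hemoglobin share at or under that level. The lower quartile of the hemoglobin share was 0.137% in control and 0.170% in GC. Cells well under the level cannot hold that much free globin RNA, so the estimate is too high for them. The cells rich in S100a8 and S100a9 had a median hemoglobin share of 0.159% and 0.148%. Globin expression of the cells' own was therefore not read from the cells of low share. Of the UMIs of the 4 hemoglobin genes in control cells, Hbb-bs made 49.6%, Hba-a1 24.7%, Hbb-bt 20.0% and Hba-a2 5.74%, and in GC cells these shares were 42.4%, 28.5%, 22.4% and 6.68%. The embryonic genes Hbb-bh1, Hbb-bh2 and Hbb-y had 0 UMIs in both libraries, which allows up to 3 UMIs of 1505915 and 1091378, and Hba-x had 1 UMI in control. Genes that are near copies of each other, such as Hba-a1 with Hba-a2 and Hbb-bs with Hbb-bt, can share reads in counting, so the split within a pair is uncertain.

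The main comparison asked which genes differed between GC and control progenitors. Summed over the cells, 5293 genes had at least 50 UMIs, and their median log2 ratio, GC over control, was -0.03 on the log2(CPM + 5) scale. At least 2-fold higher in GC were 31 genes (0.586%), and at least 2-fold lower were 34 (0.642%). On the mean over cells these counts were 214 and 316, and with each cell thinned to 1000 UMIs, which left fewer genes over the minimum, they were 2 and 1, so the number of such genes depends on how cells are weighted.

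The GC receptor targets that could be compared were all higher in GC. Of 22 genes in the list 12 had enough UMIs, and all 12 were higher in GC, where 44.9% of all tested genes were, and 6 of 12 were at least 2-fold higher. The median log2 ratio of the 12 was 0.99. The count depended on the minimum and the gate, with 14 of 15 higher at a minimum of 20 UMIs, 19 of 22 with no minimum, 11 of 12 with hemoglobin under 5% and 12 of 13 under 20%, 10 of 11 with the gate as 0.05% of UMIs, and 1 of 2, none 2-fold, with each cell thinned to 1000 UMIs. The list was assembled with earlier results of these data known. Its summed level was 2039 CPM in control and 3555 in GC, a ratio of 1.74 (1.66 to 1.83), and without the metallothionein genes Mt1 and Mt2 it was 1220 and 1875, a ratio of 1.54 (1.44 to 1.64). Per cell, the list took from 0 to 0.698% of UMIs in control with a median of 0.161%, and from 0 to 0.751% in GC with a median of 0.241%, so that the cells of both libraries overlapped over almost the whole range.

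Tsc22d3, also called GILZ, had 15.3 CPM in control (23 UMIs, in 14 of 54 cells) and 78.8 in GC (86 UMIs, in 25 of 42 cells), a ratio of 5.16 (3.23 to 8.57). Fkbp5, a chaperone of the GC receptor that GC induces, had 8.63 CPM (13 UMIs, 9 cells) and 38.5 (42 UMIs, 19 cells), a ratio of 4.46 (2.35 to 9.05). Neither depended on a single cell in GC, where the largest share of UMIs held by 1 cell was 14.0% for Tsc22d3 and 16.7% for Fkbp5. Their log2 ratios of 2.05 and 1.67 became 1.49 and 1.03 at a pseudocount of 20 CPM. With each cell thinned to 1000 UMIs they were 1.26 and 0, but a Tsc22d3 UMI was then left in only 1 of 51 control and 2 of 37 GC cells. Fkbp5 had fewer UMIs than Tsc22d3 before thinning, and too few were left for its 0 to measure a difference. Dusp1, a phosphatase that dampens MAP kinases, had 98.3 and 258.4 CPM, a ratio of 2.63 (2.15 to 3.23). Ddit4, an inhibitor of mTORC1, had 21.2 and 59.6, a ratio of 2.80 (1.81 to 4.42). The clock gene Per1 had 17.3 and 37.6, a log2 ratio of 0.93.

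Mt1 had 514.6 CPM in control and 1017 in GC, and Mt2 had 304.1 and 663.4. The deepest GC cell, cell 1, held 280 of the 1110 Mt1 UMIs and 202 of the 724 Mt2 UMIs of its library, and without the deepest cell of each library the log2 ratios fell from 0.98 to 0.64 and from 1.11 to 0.72. Leaving out those cells also took the genes of the list that were at least 2-fold higher from 6 of 12 to 3 of 11, with 10 of 11 still higher and a median of 0.78. When the mean over cells of each cell's CPM replaced the sum, 9 of 12 genes were higher and 7 were at least 2-fold higher. Klf9, a transcription factor, had a log2 ratio of 0.75, Zfp36, which speeds the decay of inflammatory mRNAs, had 0.46, Nfkbia, the inhibitor of NF-kappa B, had 0.40, and Txnip had 0.08. Cdkn1a, a cell cycle inhibitor, had 27.2 and 59.6 CPM, but without the cells of at least 10 Vim UMIs its log2 ratio was -0.67.

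**Figure D4:**
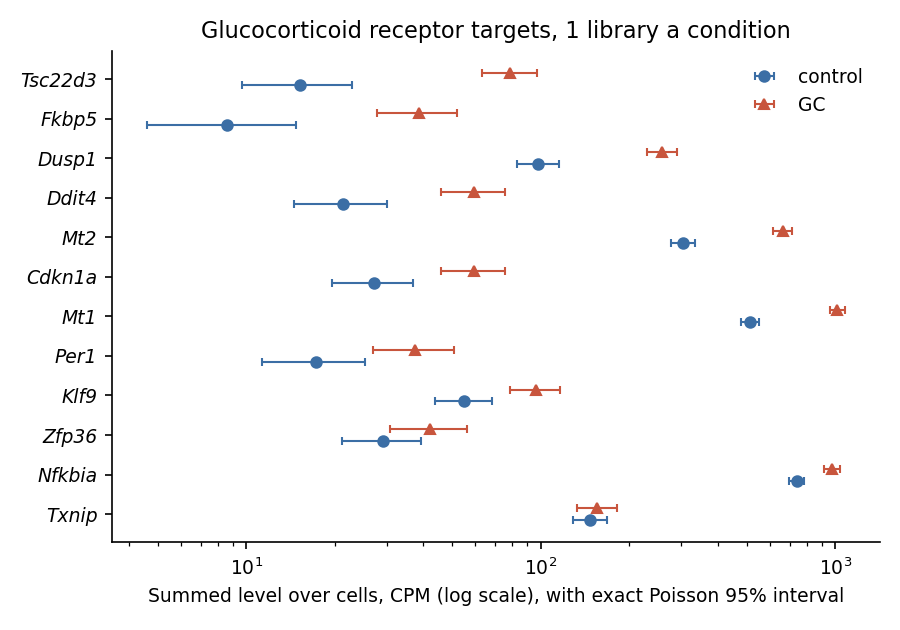
Points give the summed level of each of the 12 GC receptor targets as CPM on a log x axis, with control as circles and GC as triangles, and bars are exact Poisson 95% intervals for counting error only. All 12 triangles lie to the right of their circles, most clearly for Tsc22d3, Fkbp5, Dusp1 and Ddit4, while the intervals of Zfp36 and Txnip overlap.

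Tsc22d3 and Fkbp5 were also higher in GC outside the progenitors. Among all other barcodes, Tsc22d3 had 78.6 and 169.2 CPM and Fkbp5 had 16.3 and 61.1, and in the free RNA Tsc22d3 had 52.8 and 116.9 and Fkbp5 had 8.88 and 35.5. The whole list had 3200 and 3998 CPM in the cells rich in S100a8 and S100a9 and 1289 and 1791 in the hemoglobin-rich cells, but 3421 and 2783 in the Kit and Cd34 progenitors. Those progenitors also differed between libraries in the markers of other cells given above, and the part of these in the lower value was not tested. With the free RNA profile taken off, all 12 genes of the early erythroid progenitors were still higher and 7 were at least 2-fold higher, with a median of 1.09. Under 1% hemoglobin the list had 2274 CPM in control and 4493 in GC, and at 3 to 10% it had 1335 and 1913. From 1 to 3%, with 2 cells a library, it went the other way, with 3054 and 1561.

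Genes that respond to tissue digestion also differed. The dissociation stress list had 2479 CPM in control and 3794 in GC, a ratio of 1.53 (1.46 to 1.60), and 10 of its 11 tested genes were higher, where 44.9% of all tested genes were, with a median log2 ratio of 0.61. Jund, a subunit of the AP-1 factor, had 1009 and 1766 CPM, Egr1 28.6 and 58.6, and Atf3 27.2 and 70.6. Dusp1, Nfkbia and Zfp36 answer to such stress as well as to GC, and without Mt1, Mt2 and Dusp1 the GC receptor targets had 1122 and 1616 CPM, a ratio of 1.44 (1.35 to 1.54). In the cells rich in S100a8 and S100a9 the stress list was lower in GC, with 4867 and 3932 CPM. It was also lower in the Kit and Cd34 progenitors, with 8362 and 5813, but higher in the hemoglobin-rich cells, with 2698 and 2861. The part of the stress list in the result for the GC receptor targets was not tested.

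The receptor itself did not differ beyond counting error. Nr3c1 had 33.9 CPM in control and 29.3 in GC, a ratio of 0.866 (0.538 to 1.37). The list of the receptor and its chaperones had 6850 and 7156, a ratio of 1.04. Of its 8 tested genes 2 were higher, beside 44.9% of all tested genes, and the median log2 ratio was -0.10. Hspa8, a heat shock protein, was the list's largest difference among genes of over 1000 CPM, with 1882 and 2413. Nr3c2, the mineralocorticoid receptor, had 0 and 1 UMI.

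**Figure D5:**
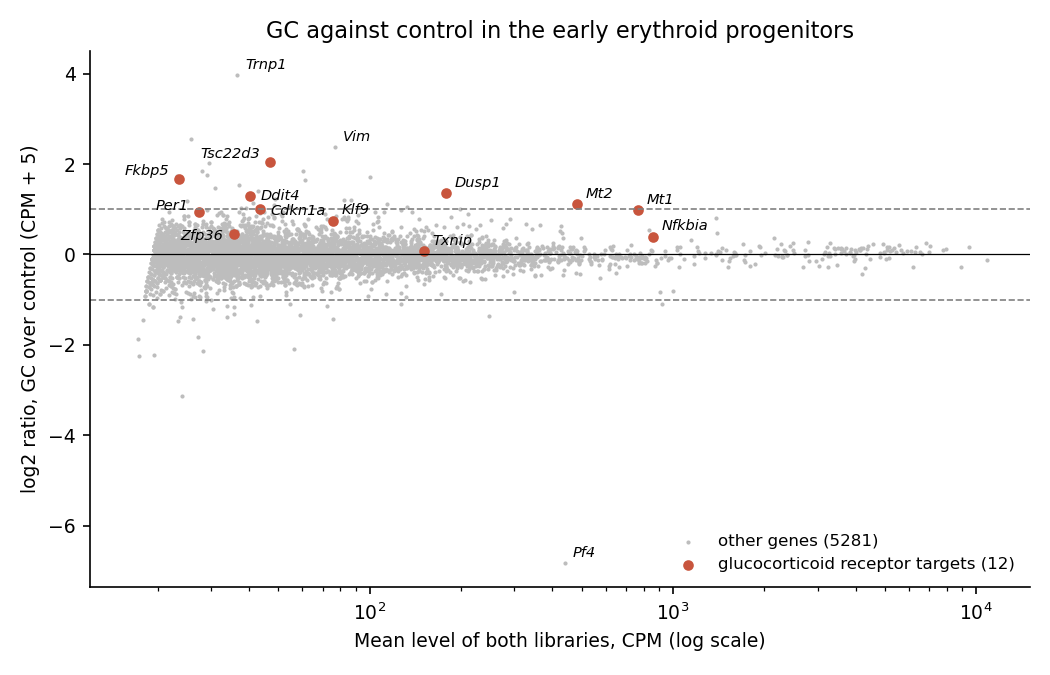
Each point is 1 of 5293 genes in the early erythroid progenitors, with the mean CPM of both libraries on a log x axis and the log2 ratio of GC over control (CPM + 5) on the y axis; red points are the 12 GC receptor targets and dashed lines mark 2-fold. All 12 red points lie above 0, Trnp1 and Vim lie highest among the other named genes, and Pf4 lies lowest.

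The 16 erythroid transcription factors summed to 1968 CPM in control and 1817 in GC, a ratio of 0.923 (0.872 to 0.977), in a list that includes Klf1 and Gata1, on which the cells were selected. As a description, Klf1 had 231.1 and 197.9 CPM and Gata1 had 116.9 and 122.8. The log2 ratio of Gata1 was 0.07 on the sum, -0.54 on the mean over cells and -2.50 with each cell thinned to 1000 UMIs, and that of Klf1 went from -0.22 on the sum to -0.83 thinned. The thinned values rest on few UMIs, with Gata1 found in 8 of 51 control and 1 of 37 GC cells and Klf1 in 8 and 4. Lmo2, a bridging factor in the Gata1 complex, had 286.2 and 194.3, a ratio of 0.679 (0.573 to 0.802). Sox6, which with Bcl11a silences embryonic globin, had 77.7 and 127.4, a ratio of 1.64 (1.27 to 2.11). Bcl11a had 122.2 and 115.5.

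The 15 tested heme synthesis genes had a median log2 ratio of -0.08, and the list summed to 4203 and 4302 CPM, a ratio of 1.02 (0.985 to 1.06). Alas2 had 85.0 and 82.5 CPM. Tmem14c, a mitochondrial porphyrin carrier, had 1177 and 1240.

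Iron genes summed to 11648 and 13416 CPM, a ratio of 1.15 (1.13 to 1.18). The ferritin subunits made most of that sum, with Fth1 at 6259 and 7442 and Ftl1 at 2538 and 3057. Tfrc had 307.5 and 319.8 CPM, a ratio of 1.04 (0.903 to 1.20), and the mitochondrial iron importer Slc25a37 had 160.0 and 210.7. The median log2 ratio of the 16 tested genes was 0.03.

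Of 22 tested membrane and skeleton genes 17 were higher in GC (77.3%, beside 44.9% of all tested genes), the median log2 ratio was 0.22 and the sum was 5659 and 6076 CPM. Rhag, an ammonium transporter of the Rh complex, had the highest ratio, with 217.8 and 330.8 CPM, a ratio of 1.52 (1.30 to 1.77). Spectrin beta, Sptb, had 115.5 and 168.6. Aqp1, the water channel, was lower, with 380.5 and 301.5.

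The erythropoietin receptor axis summed to 346.6 and 395.8 CPM. Epor had 79.7 and 103.5, a ratio of 1.30 (0.996 to 1.69). Stat5b, a transcription factor downstream of the receptor, had 18.6 and 32.1 CPM, while its partner Jak2 had 52.5 and 36.7. Erfe, which encodes the hormone erythroferrone that erythroblasts release to lower hepcidin, had 0 UMIs in control and 7 in GC, in 6 of 42 cells. Against a floor of 3 UMIs over the control cells, and with the 7 GC UMIs taken as exact, Erfe was at least 3.22-fold higher in GC. The counting error of the 7 UMIs is thus not in this bound. The axis' known feedback targets were scarce, with Cish at 12 and 16 UMIs, Socs3 at 3 and 0, Socs1 at 0 and 1 and Socs2 at 1 and 0.

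Among early progenitor genes, Kit had 44 UMIs in control and 66 in GC (29.2 and 60.5 CPM, a ratio of 2.07, 1.39 to 3.10), in 14 and 12 cells. Its log2 ratio was 0.94 on the sum and 0.45 on the mean over cells, and 3 GC cells held 46 of the 66 UMIs. Gata2, which precedes Gata1 in the lineage, had 22 and 30 UMIs, and 12 of the 30 were in 1 GC cell. Its log2 ratio was 0.73, 1.97 on the mean over cells, and -0.41 without the cells of at least 10 Vim UMIs. The whole list had 405.1 and 456.3 CPM, and 3 of 7 tested genes were higher, beside 44.9% of all tested genes. Its summed log2 ratio of 0.17 became -0.073 without the cells of at least 10 Vim UMIs and -0.0086 on the mean over cells. It was -0.32 with each cell thinned to 1000 UMIs and 0.45 with at least 2 UMIs of Klf1, Gata1 and Car1.

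Genes tied to the self-renewal of early erythroid progenitors in culture were higher in GC in 2 of 5 cases and lower in 3, beside 44.9% of all tested genes higher. Zfp36l2, an RNA-binding protein that GC is known to induce in such cells, had 180.0 and 239.1 CPM, a ratio of 1.33 (1.12 to 1.58), with a log2 ratio of 0.40 on the sum and 0.08 on the mean over cells. The list had 723.8 and 776.1 CPM on the sum, and its direction turned on the mean over cells, with 897.4 and 721.6.

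The summed G2/M genes were close in both libraries, and the S phase genes were slightly lower in GC. S phase genes had 6513 and 5856 CPM, a ratio of 0.899 (0.871 to 0.928), with 33 of 41 lower in GC, where 55.1% of all tested genes were, and a median log2 ratio of -0.19 beside -0.03 over all genes. Dscc1, which helps load the replication clamp, was the only one 2-fold lower, with 51.1 and 20.2 CPM. G2/M genes had 11206 and 11201 CPM, and Cdk1, the mitotic kinase, had 127.5 and 202.5, a ratio of 1.59 (1.30 to 1.94). A Mki67 UMI was present in 35 of 54 and 26 of 42 cells. Ribosome biogenesis had 5646 and 5628 CPM, and 6684 and 5484 on the mean over cells. The globins had 19722 and 19157. Of the 4 tested globins 3 were higher in GC, beside 44.9% of all tested genes, and Hbb-bs was lower, with a median log2 ratio of 0.14. The direction of the summed globin level turned on the mean over cells (18050 and 20118 CPM). It also turned with the free RNA profile taken off (12311 and 14748), at the estimate given above, which is too high for many cells. In the early enzyme list Apoe, a lipid carrier, was 2-fold higher, with 50.5 and 123.7 CPM, but 32.6% of its GC UMIs and 35.5% of its control UMIs were in 1 cell each, and catalase, Cat, had 33.9 and 67.8.

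The genes with the highest GC over control ratios beyond the GC receptor targets rested largely on a few cells. Trnp1 had 0 UMIs in control and 80 in GC. With the 80 taken as exact, it was at least 36.8-fold higher against the floor of 3 UMIs. But 51 of the 80 were in the deepest GC cell, and 7 of 42 cells had any. Vim had 21.2 and 131.9 CPM, and its log2 ratio of 2.38 became -0.07 without the cells of at least 10 Vim UMIs. Smad7, an inhibitor of TGF-beta signals, had a log2 ratio of 1.40 that became -0.34 without the same cells, and for Phlda1 1.64 became 0.52. Cxcl2, a chemokine gene with a log2 ratio of 1.85, had 82.1% of its GC UMIs in 1 cell. Chil3, a neutrophil and macrophage gene, had 44.5 and 156.7 CPM, below its 1061 and 3047 CPM in the free RNA, and Smim3 had 16.6 and 57.7.

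The lowest ratios belonged mostly to genes of other blood lineages. Pf4 had 1319 UMIs in control and 3 in GC, a ratio of 0.00314 (0.000646 to 0.00919), and the integrin Itga2b, Cd9, Plek and Tmsb4x, all high in megakaryocytes and platelets, had log2 ratios of -1.48, -2.09, -1.38 and -1.11. Without the 2 control cells with megakaryocyte genes at 0.5% of UMIs or more, the log2 ratios of these 5 genes were 0.44 for Pf4, 1.56 for Itga2b, 0.51 for Cd9, 0.67 for Plek and 0.70 for Tmsb4x. The neutrophil granule genes Ltf and Ngp had log2 ratios of -1.44 and -1.37, and -0.62 and -0.29 with S100a8 and S100a9 held under 1% of UMIs. Furin, Golga3, Fabp5 and Dnajb14 had -1.34, -1.32, -1.15 and -1.11. Golga3 was at 0.59 on the mean over cells, and Dnajb14 was at -0.13 with S100a8 and S100a9 under 1%. Furin was at -0.16 with at least 2 UMIs of Klf1, Gata1 and Car1. On the mean over cells Furin was at -0.74 and Fabp5 at -0.48, and with each cell thinned to 1000 UMIs at -4.06 and -0.66. The thinned value of Furin rests on very few UMIs.

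Coordinates of the genes that these comparisons turned on are those of the GENCODE annotation on GRCm38. Klf1 lies on the + strand at chr8:84901928-84905291, Gata1 on the - strand at chrX:7959260-7978071, Car1 on the - strand at chr3:14766216-14808368, and Car2 near it on the + strand at chr3:14886273-14900770. Tsc22d3 lies on the - strand at chrX:140539528-140600659, Fkbp5 on the - strand at chr17:28399094-28517527 and Dusp1 on the - strand at chr17:26505590-26562128. Mt2 and Mt1 are neighbors on the + strand at chr8:94172664-94173568 and chr8:94179082-94180327, and they are related in sequence, so their reads may be shared in part. The libraries count the 3' ends of transcripts over the whole gene, so no exon, intron or promoter use could be read from them.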

How the data were processed

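Single-cell RNA-Seq of 4 libraries was available, 1 each of trabecular bone and callus from control and GC mice, and the 2 trabecular libraries were analysed. The deposited files are gene-by-barcode matrices of UMI counts that the authors made from their reads, with no normalization. The submitters' processing notes name Cell Ranger 5.0.1, Seurat 3.2.0 and mm10, while the matrix headers name Cell Ranger 4, and cell calls or cluster names of the authors were not used here. The control and GC trabecular matrices hold 41239842 and 45876714 UMIs, with 4230 and 5587 barcodes of at least 500 UMIs, and 3977 and 4788 passed the filter stated in the report. The cells described hold 1505915 and 1091378 UMIs, of which the deepest cell has 5.54% and 8.26%.

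Counts were summed over the cells of a library and given as CPM. Genes with at least 50 UMIs over both libraries were compared as log2 ratios with a pseudocount of 5 CPM, which understates changes of low genes. With 1 library per condition no test was possible, and 95% intervals are exact Poisson, Clopper-Pearson or conditional Poisson, for counting error only. Named were the genes of 29 lists (434 of 436 symbols found), the 12 highest and 12 lowest ratios among genes with at least 50 CPM in 1 library, the 15 leading genes and the 10 with most UMIs, of which a few are not reported here. The cells, lists and tests were chosen with earlier results of these data known. Doublets were scored against simulated pairs at 0.8% per 1000 barcodes, and none was removed from the values reported. The free RNA profile came from barcodes of 10 to 100 UMIs. The alternatives changed the gate, the pseudocount, the minimum count, the scaling, the weighting of cells and the cells included, and 6 of them were added after seeing the data. The code was tested on simulated data. Tables were handled with pandas 2.3.3 under Python 3.11.15, intervals came from scipy 1.17.1, thinning from numpy 2.4.6, doublet neighbours from scikit-learn 1.9.0 and plots from matplotlib 3.10.9.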

Additional observations from a re-analysis of the deposited data

Results flagged for a closer look

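The callus libraries, which the comparisons above do not use, also held barcodes that met the same gate. There were 17 in control callus, 0.238% of 7133 barcodes that passed the filter (Clopper-Pearson interval 0.139 to 0.381%), and 4 in GC callus, 0.0547% of 7318 (0.0149 to 0.140%). They were looked at because they are a signal outside the main measurement, above the limit that a count of 0 allows. Over their cells, Car2 summed to 819 UMIs in control callus and 155 in GC callus, and Tfrc to 143 and 28. The GC callus matrix lists barcodes of at least 500 UMIs only, whereas the others list all. The callus mice had a fracture, and the paper describes daily prednisolone injection for its fracture model, where the trabecular mice had a pellet. The shares are therefore given as values, and the difference between callus and trabecular bone was not tested.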

How the results depend on the processing

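No paired analysis was possible because each condition had 1 library. Of 184 values of the main results under alternatives, 141 stayed within 1.5 times a count or the counting interval of a ratio or share, 43 moved beyond it, and 18 changed sign, 7 of those within the interval. Of 888 values of single genes, 762 stayed within the interval, and 29 changed sign, 16 of them from a log2 ratio of at least 1 in size. The interval holds no pseudocount, while the log2 ratios of single genes do. Values of Trnp1 equal to its main log2 ratio of 3.97 were thus counted as outside it. The share ratio stayed negative in all 16 alternatives, between -0.94 and -0.53 on the log2 scale. The GC receptor target sum stayed positive, between 0.52 and 0.91, and the erythroid transcription factor sum stayed negative, between -0.48 and -0.044. So did the S phase sum, between -0.23 and -0.072. The 31 genes higher in GC became 60 with 2 UMIs of Klf1, Gata1 and Car1, 18 at a pseudocount of 20 CPM, 80 at a minimum of 20 UMIs, 128 with no minimum, 214 on the mean over cells and 2 with cells thinned to 1000 UMIs. The 34 genes lower became 59 without the cells of at least 10 Vim UMIs, 58 and 13 at pseudocounts of 1 and 20 CPM, 98 at a minimum of 20 UMIs, 151 with no minimum, 316 on the mean over cells and 1 thinned. Thinning left fewer genes over the minimum.

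The summed log2 ratios were 0.80 for GC receptor targets, 0.03 for heme synthesis, -0.15 for S phase, -0.0006 for G2/M, 0.17 for early progenitor genes and -0.12 for erythroid transcription factors. They became, for GC receptor targets, 0.91 at 5% mitochondrial UMIs, 0.58 without the deepest cells, 0.58 on the mean over cells and 0.52 thinned. For heme synthesis they became -0.056 at 5% mitochondrial UMIs, 0.15 with hemoglobin under 5%, -0.036 without megakaryocyte-gene cells, 0.14 without the deepest cells, 0.11 without Vim cells, 0.10 on the mean over cells and -0.18 thinned. For S phase they became -0.23 at 5% mitochondrial UMIs, -0.11 with hemoglobin under 5%, -0.079 without the deepest cells, -0.072 without Vim cells and -0.10 on the mean over cells. For G2/M they became -0.039 at 5% mitochondrial UMIs, -0.065 with the gate as 0.05% of UMIs, 0.072 with hemoglobin under 5%, -0.084 under 20%, -0.056 without megakaryocyte-gene cells, 0.068 without the deepest cells, 0.038 without Vim cells, 0.033 centred on the median gene and 0.080 thinned. For early progenitor genes they became 0.45 with 2 UMIs of the gate genes, -0.073 without Vim cells, -0.0086 on the mean over cells and -0.32 thinned, and for erythroid transcription factors -0.48 thinned.

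Single genes with a log2 ratio of at least 1 in size changed sign as follows. Without Vim cells Cdkn1a became -0.67, Vim -0.066 and Smad7 -0.34. Without megakaryocyte-gene cells Pf4 became 0.44, Cd9 0.51, Itga2b 1.56, Plek 0.67 and Tmsb4x 0.70, and with the gate as 0.05% of UMIs they became 1.68, 0.70, 1.09, 0.43 and 0.59. Thinned, Plek became 2.68 and Tmsb4x 0.025, and on the mean over cells Golga3 became 0.59. Of the 13 sign changes from a smaller log2 ratio, 8 stayed within the counting interval of the ratio. The others were Gata1, from 0.07 to -0.54 on the mean over cells and -2.50 thinned, Tfrc, from 0.06 to -0.25 on the mean over cells, Gata2, from 0.73 to -0.41 without Vim cells, and Car2, from 0.06 to -0.034 without megakaryocyte-gene cells. Causes other than the cells left out were not tested. Genes of under 50 UMIs carry wide counting intervals at this depth.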
